A study of Mus musculus with 24 samples.

Results

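Mature strands of 5 miRNA families with known links to neurons and hormone-secreting cells were followed in mouse subcutaneous adipose tissue. They are the 7 names mmu-miR-7a-5p, mmu-miR-7b-5p, mmu-miR-9-5p, mmu-miR-129-5p, mmu-miR-129-2-3p, mmu-miR-488-3p and mmu-miR-598-3p, out of 1907 mature miRNA names in the counts of the series. They were listed by name, and selected on their counts in these same libraries, with their levels and their differences between diets and times already known. The fold changes below are therefore descriptions of these libraries and not independent tests. All 7 were among the 558 names that passed the filter on low counts.

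Small RNA was sequenced from tissue of mice fed high-fat or control food, taken at day 1, week 1 and week 3 of feeding. Each of the 6 groups (high-fat day 1, control day 1, high-fat week 1, control week 1, high-fat week 3 and control week 3) held 4 libraries, 24 in all. Genotype, strain, age and sex are not stated in the labels for any group, and the groups differ only by diet and time as labelled. Whether each library is a different mouse is not stated, so p-values reflect only how much these samples vary, and that variation may be technical.

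MicroRNAs are short RNAs cut from a hairpin precursor, and either strand of the hairpin (the 5p or the 3p arm) can be loaded into Argonaute, where its seed (bases 2 to 8) pairs with target mRNAs. The miR-7 family is abundant in the pituitary and the pancreatic islets of the mouse, where miR-7a restrains insulin secretion by beta cells. The miR-9 and miR-129 families are best known from the brain, where miR-9 acts in neural progenitors, and Mir488 and Mir598 lie in introns of longer genes. Adipose tissue is not where these miRNAs are usually studied, and it holds adipocytes together with leukocytes, vessels, nerve endings and other cells. In such bulk samples fewer cells of a type and less RNA per cell cannot be told apart.

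The sequences below show which of these miRNAs share a seed and which could share reads. They are from RefSeq on GRCm38.p6, are written 5′ to 3′ with the seed in capitals, and cover 6 of the 7 members, 2 opposite arms and 1 overlapping miRNA. Only miR-7a-5p and miR-7b-5p have the same seed, and among the 1679 names with a mature sequence no other name has it.
miR-7a-5p: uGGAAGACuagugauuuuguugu
miR-7b-5p: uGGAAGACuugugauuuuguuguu
miR-9-5p: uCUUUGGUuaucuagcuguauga
miR-129-5p: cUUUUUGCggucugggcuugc
miR-129-2-3p: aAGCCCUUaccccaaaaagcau
miR-488-3p: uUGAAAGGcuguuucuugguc
miR-7a-1-3p: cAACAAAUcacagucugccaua
miR-9-3p: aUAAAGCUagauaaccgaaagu
miR-129b-5p: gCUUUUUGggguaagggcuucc

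Counted from the 5′ end, the change A10U and 1 further base at the 3′ end (24 against 23 bases) are what separates miR-7b-5p from miR-7a-5p. The mature forms are near-identical, and how reads that could fit both were assigned is not stated, so the split between them is uncertain. The mature miR-7a-5p is encoded at 2 loci (GRCm38): Mir7-1 at chr13:58392779-58392886 on the minus strand, in an intron of Hnrnpk, and Mir7-2 at chr7:78888277-78888373 on the plus strand, between genes. Mir7b lies between genes at chr17:56242988-56243098 on the plus strand.

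Mature miR-9-5p comes from 3 loci. Mir9-1 (chr3:88215598-88215686, plus strand) lies in an intron of the lincRNA Gm3764, Mir9-2 (chr13:83738814-83738885, plus strand) in an exon of the lincRNA C130071C03Rik, and Mir9-3 (chr7:79505264-79505353, plus strand) in an intron of its host transcript Mir9-3hg. Mature miR-129-5p comes from 2 loci, Mir129-1 (chr6:29022619-29022691, plus strand, exon of the lincRNA Gm3294) and Mir129-2 (chr2:94241364-94241453, minus strand, intron of Mir670hg), whereas miR-129-2-3p comes from Mir129-2 alone. Mir129b (chr2:94241378-94241442) overlaps Mir129-2 on the opposite strand, and miR-129-2-3p shares a run of 20 bases with the reverse complement of miR-129b-5p. Whether the counting used the strand is not given in the sources used here, so reads of these overlapping arms may have been shared. The single-copy members are Mir488 (chr1:158505625-158505733, plus strand, intron of the neuronal gene Astn1) and Mir598 (chr14:63727189-63727267, plus strand, intron of Xkr6).

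Library totals ranged from 1.99 to 16.3 M counts (M, mega) with a median of 5.30 M. Levels are CPM, counts per 1 M counts of a library after TMM scaling, and the floor of 3 counts per library was 0.186 to 1.48 CPM. All 4 adipocyte markers passed the filter, and their summed level was 128569 to 288397 CPM over the 24 libraries. Summed skeletal muscle miRNAs spanned 24.04 to 80427 CPM, and high-fat week 1 replicate 2, high-fat week 3 replicate 4 and control week 1 replicate 4 were the highest by the mean log2 level of that list. Those 3 libraries were kept, and results that differ without them are given below.

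The levels of the members spanned a wide range in this tissue. miR-7a-5p had the highest mean level, 198 CPM over the 24 libraries, and ranked 151st of the 1907 names. miR-598-3p followed with a mean of 25.0 CPM (rank 295). miR-488-3p averaged 3.85 CPM (rank 431), miR-7b-5p 3.29 CPM (rank 444), miR-129-2-3p 2.97 CPM (rank 459) and miR-129-5p 1.54 CPM (rank 523). miR-9-5p was the lowest at 0.684 CPM (rank 627), under the floor of the shallowest libraries. Of the miR-7 seed, miR-7a-5p supplied 94.4% to 99.3% of the counts of its pair with miR-7b-5p in each library.

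Counting error and the spread between libraries differed in weight among the members. The within-group coefficient of variation of miR-7a-5p was 41.0%, where counting alone would give 2.92%, and for miR-598-3p these values were 22.3% and 8.003%. For miR-488-3p they were 49.7% and 20.8%, for miR-129-2-3p 50.5% and 23.7%, and for miR-129-5p 53.6% and 33.3%. miR-7b-5p had the smallest margin over counting error, 34.9% against 22.6%, and miR-9-5p the largest spread, 163% against 45.7%. For every member, each group's range overlapped that of its neighbour when the 6 groups were ordered by mean level.

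**Figure D1:**
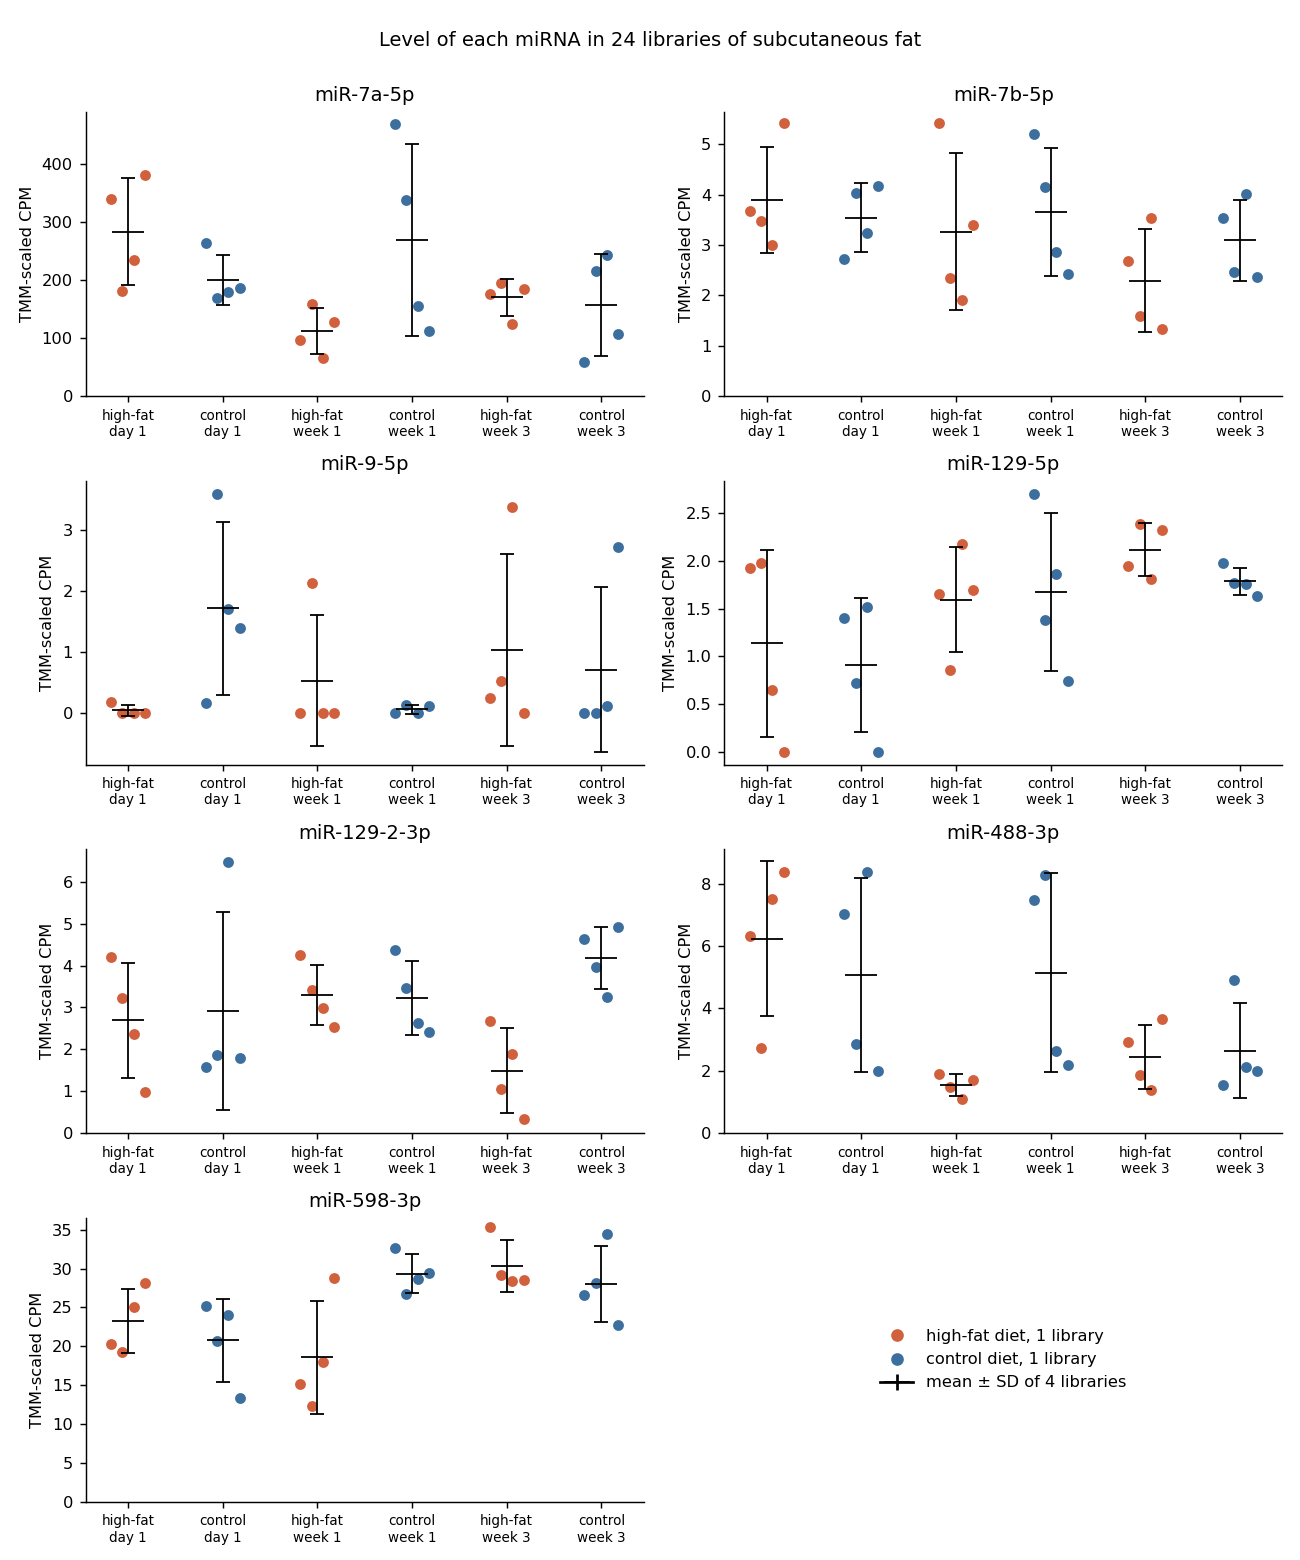
TMM-scaled CPM of each of the 7 miRNAs (y axes, 1 scale per panel) in the 6 diet and time groups (x axes). Points are single libraries and the bars give the mean ± SD of 4 libraries. The 4 high-fat week 1 points of miR-488-3p all lie below the 4 control week 1 points, as do the 4 high-fat week 3 points of miR-129-2-3p below the control week 3 points.

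The diet comparison asks which miRNAs differed between high-fat and control tissue at each time. With the quasi-likelihood test of edgeR and Benjamini-Hochberg adjustment over all 558 tested miRNAs, 0 of the 7 members passed an adjusted p of 0.05 at day 1, week 1 or week 3 or in the mean of the 3 times, against a background of 0% of all tested miRNAs in each of these 4 comparisons. At an unadjusted p under 0.05 in edgeR, 1, 3 and 1 of the 7 members passed at day 1, week 1 and week 3, against a background of 3.05%, 14.2% and 1.79%, and 0 passed in the mean of the 3 times (background 3.23%). The day 1 member was miR-9-5p, for which no fold change is given below because of its low counts. DESeq2 and limma-voom also called 0 members after adjustment in these 4 comparisons, and 0% of all tested miRNAs. These contrasts were known when the members were chosen, so nothing is read from the members' shares. At day 1 no member separated the diets without overlap, against 1.25% of all tested miRNAs lower and 0.538% higher in every high-fat library.

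miR-7a-5p, known from islets and the pituitary, had its lowest group mean in high-fat tissue at week 1. It had 95.9, 158, 65.9 and 128 CPM in the 4 high-fat week 1 libraries, against 468, 338, 156 and 113 CPM in the 4 control week 1 libraries. The groups overlapped: control replicates 1 and 2 were above every high-fat library, and control replicates 3 and 4 lay inside the high-fat range. The log2 fold change was −1.26 ± 0.42 (SE, edgeR), and leaving out 1 library at a time gave −1.45 to −0.80, the smallest difference without control week 1 replicate 1. Means were 112 ± 40.0 CPM in high-fat and 268 ± 165 CPM in control tissue (SD, n = 4 each).

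At day 1 miR-7a-5p stood the other way round. It had 339, 180, 233 and 380 CPM in high-fat libraries and 264, 169, 180 and 186 CPM in control libraries, with a log2 fold change of 0.50 ± 0.41. At week 3 it had 176, 195, 124 and 184 CPM in high-fat libraries and 59.0, 215, 243 and 106 CPM in control libraries, with a log2 fold change of 0.12 ± 0.41. Both pairs of groups overlapped, and control week 3 replicate 1 was the lowest of all 24 libraries.

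The opposite arm of Mir7-1, miR-7a-1-3p, was present in every library with a mean of 38.8 CPM (rank 259). Its week 1 log2 fold change between the diets was −0.49 ± 0.27, the same sign as that of miR-7a-5p. The ratio of miR-7a-5p to miR-7a-1-3p counts ranged from 1.87 to 12.6 over the libraries, with a median of 4.04 in high-fat and 5.06 in control tissue at week 1. The other passenger arms of the family were at or near 0: miR-7a-2-3p had 5 counts in 3 libraries and miR-7b-3p had 0 counts in all 24.

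miR-7b-5p, with the same seed, was sparse and nearly level. It had 5.42, 2.35, 1.91 and 3.39 CPM in high-fat week 1 libraries, against 5.20, 4.14, 2.85 and 2.42 CPM in control week 1 libraries. The groups overlapped over most of their range, and the log2 fold change was −0.13 ± 0.35. At day 1 it was 0.11 ± 0.35 and at week 3 −0.35 ± 0.36, from 4 to 41 counts per library over the series.

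miR-488-3p, from the intron of Astn1, had the largest fold change between the diets at any single time among the 6 members for which one is given. It had 1.89, 1.49, 1.09 and 1.70 CPM in high-fat week 1 libraries, against 7.49, 8.29, 2.63 and 2.17 CPM in control week 1 libraries. Every high-fat library was below every control library, although control replicates 3 and 4 were close to the high-fat values. The high-fat values rest on 8, 7, 4 and 4 counts, just over the floor. The control values rest on 36, 60, 24 and 35 counts, from libraries that were all deeper. The log2 fold change was −1.69 ± 0.56, and −1.91 to −1.25 with 1 library left out. Of all tested miRNAs, 1.97% were lower in all high-fat week 1 libraries without overlap, and 1 of the 7 members was.

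The same miRNA did not separate the diets at the other times. At day 1 it had 6.31, 2.72, 7.51 and 8.38 CPM in high-fat libraries and 7.03, 2.87, 8.37 and 1.99 CPM in control libraries (log2 fold change 0.27 ± 0.49). At week 3 it had 2.92, 1.86, 1.38 and 3.65 CPM in high-fat libraries and 1.54, 4.91, 2.13 and 1.999 CPM in control libraries (log2 fold change −0.21 ± 0.54). Both pairs of groups overlapped widely. The passenger arm miR-488-5p had 0 counts in all 24 libraries.

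The most evenly measured of the members was miR-598-3p, from the intron of Xkr6, with 57 to 474 counts per library. It had 15.1, 12.4, 17.96 and 28.8 CPM in high-fat week 1 libraries, against 32.7, 26.7, 28.6 and 29.4 CPM in control week 1 libraries. High-fat replicate 4 alone reached the control range. The log2 fold change was −0.68 ± 0.23, and leaving out 1 library at a time gave −0.94 (without that library) to −0.49 (without high-fat week 1 replicate 2). Without the 3 libraries highest in muscle miRNAs it was −0.51, no longer at an unadjusted p under 0.05. At day 1 and week 3 it was 0.15 ± 0.23 and 0.12 ± 0.23. The passenger arm miR-598-5p had 4 counts in 2 libraries.

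The week 1 count of members called depended on which libraries were used. Without control week 1 replicate 4, edgeR called 2 of the 7 members, miR-488-3p at a log2 fold change of −1.91 ± 0.54 and miR-7a-5p at −1.45 ± 0.40 (adjusted p = 0.0496 for each), among 22 of all tested miRNAs. Without the 3 libraries highest in muscle miRNAs, which include that library, it called miR-7a-5p at −1.72 ± 0.45 (adjusted p = 0.0482), among 31 of all tested miRNAs. With all 24 libraries none of these calls was made.

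In the miR-129 family the libraries of the diets separated at week 3, in 1 of its arms. miR-129-2-3p had 2.68, 1.06, 1.90 and 0.331 CPM in high-fat week 3 libraries, against 4.63, 3.96, 3.26 and 4.91 CPM in control week 3 libraries. Every high-fat library was below every control library, from 11, 4, 22 and 1 counts in high-fat and 21, 29, 26 and 27 counts in control tissue. The log2 fold change was −1.38 ± 0.47, and −1.69 to −1.10 with 1 library left out. Means were 1.49 ± 1.02 CPM in high-fat and 4.19 ± 0.738 CPM in control tissue (SD, n = 4 each). Of all tested miRNAs, 0.717% were lower in all high-fat week 3 libraries without overlap, and 1 of the 7 members was.

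The 5p arm of the same hairpins, miR-129-5p, showed no such separation at week 3. It had 1.95, 2.39, 1.81 and 2.32 CPM in high-fat libraries, against 1.98, 1.77, 1.75 and 1.64 CPM in control libraries, from 7 to 21 counts. The groups overlapped and the log2 fold change was 0.22 ± 0.54. The count ratio of miR-129-2-3p to miR-129-5p had a median of 0.746 in high-fat week 3 libraries (0.143 to 1.375) and of 2.28 in control week 3 libraries (1.86 to 3), so the ranges did not overlap. The 5p arm can also come from Mir129-1, whose own 3p arm, miR-129-1-3p, had 0 to 5 counts per library and a mean of 0.402 CPM. The overlapping miR-129b-5p had 8 counts in 6 libraries, and miR-129b-3p had 0 in all 24.

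At day 1 and week 1 neither miR-129 arm separated the diets. miR-129-2-3p had 4.21, 3.22, 2.36 and 0.986 CPM in high-fat day 1 libraries and 1.57, 1.87, 6.47 and 1.79 CPM in control day 1 libraries, where control replicate 3 lay far above the rest. Its log2 fold change was 0.01 ± 0.43, and 0.74 without control day 1 replicate 3. At week 1 its log2 fold change was 0.08 ± 0.45, from 2.54 to 4.24 CPM in high-fat and 2.42 to 4.37 CPM in control tissue. miR-129-5p had 0 counts in high-fat day 1 replicate 4 and in control day 1 replicate 4, and its log2 fold changes were 0.40 ± 0.60 at day 1 and −0.02 ± 0.59 at week 1.

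miR-9-5p, the neural progenitor miRNA, was near or below the floor in most libraries. It had 0 counts in 11 of the 24 libraries and at most 3 in 18, and the other 6 libraries held 105 of its 115 counts. At day 1 it had 1, 0, 0 and 0 counts in high-fat libraries and 2, 25, 9 and 7 counts in control libraries. At week 1 it had 0, 10, 0 and 0 counts in high-fat libraries and 0, 1, 0 and 2 counts in control libraries. At week 3 it had 1, 2, 39 and 0 counts in high-fat libraries and 0, 0, 1 and 15 counts in control libraries. At week 1 and week 3 a single library held most counts of the high-fat group, and at week 3 also of the control group, so no fold change is given.

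The summed counts of miR-9-5p pointed in different directions at different times. They were 1 in high-fat and 43 in control tissue at day 1, a rate ratio of 0.0415 (exact 95% interval 0.00103 to 0.244). The ratio was 8.31 (2.14 to 47.0) at week 1, from 10 counts in high-fat and 3 in control tissue. It was 2.96 (1.63 to 5.65) at week 3, from 42 counts in high-fat and 16 in control tissue. These intervals cover counting error only and not the spread between libraries, which was larger. The opposite arm miR-9-3p, encoded at the same 3 loci, was present in all 24 libraries with 2 to 55 counts and a mean of 3.06 CPM, including 2 to 33 counts in the libraries with 0 counts of miR-9-5p. The log2 fold change of miR-9-3p between the diets at week 1 was −0.12 ± 0.39.

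**Figure D2:**
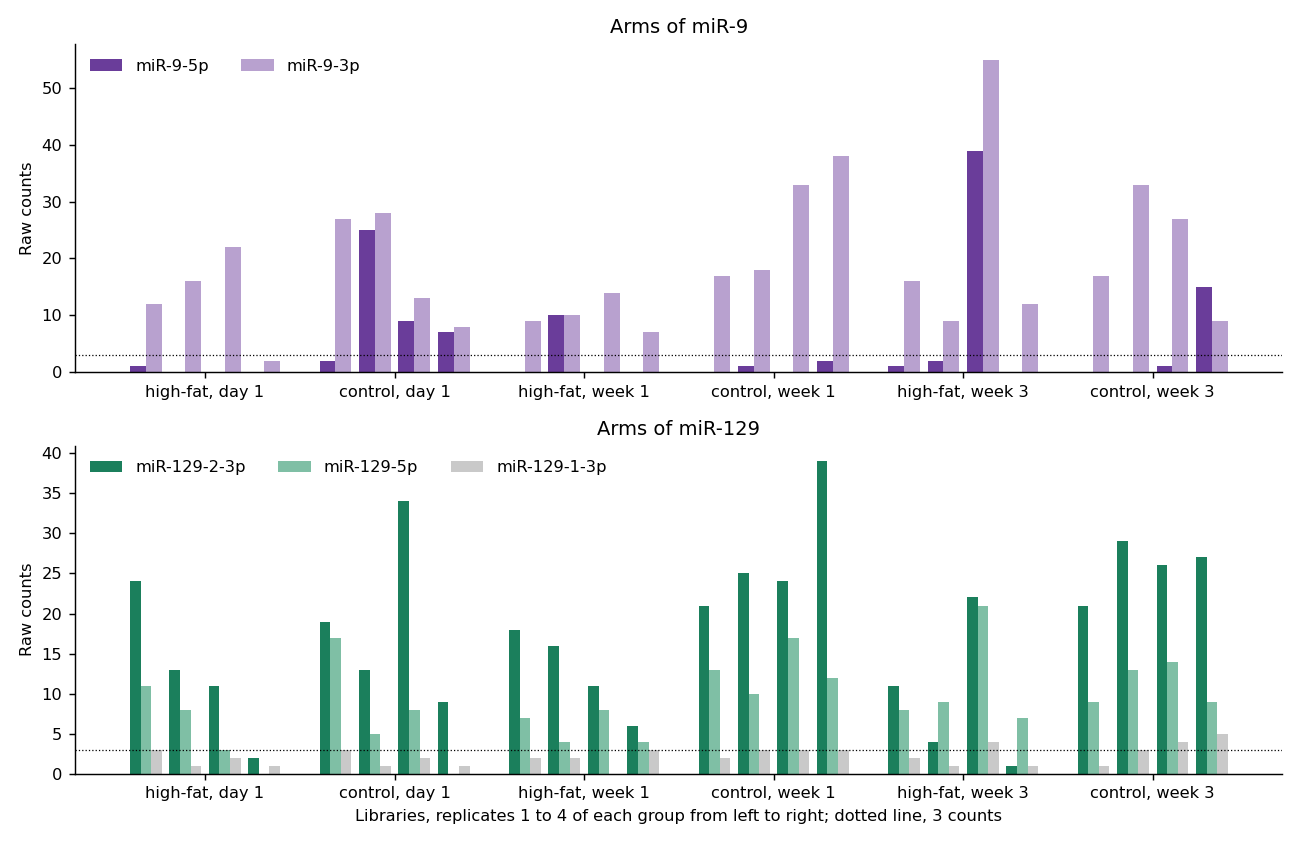
Raw counts (y axes) of the arms of miR-9 (top) and miR-129 (bottom) in each library, replicates 1 to 4 of each of the 6 groups from left to right, with the floor of 3 counts as a dotted line. miR-9-3p has counts in every library while miR-9-5p is at 0 in 11, and in high-fat week 3 replicates 2 and 4 miR-129-2-3p is below miR-129-5p, whereas in every control week 3 library it is above.

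**Figure D3:**
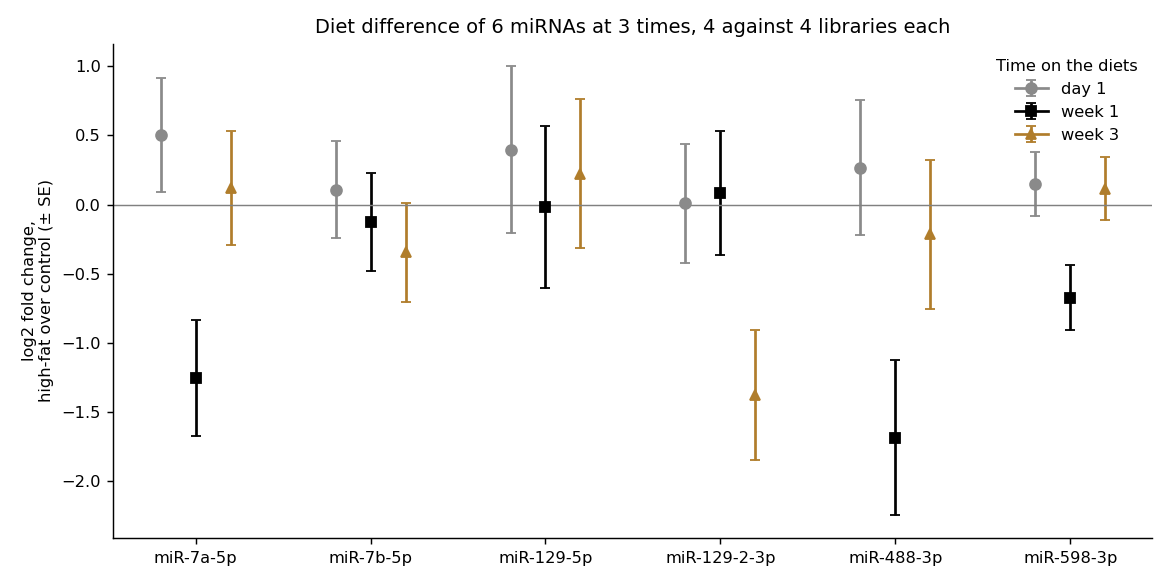
Log2 fold change of 6 miRNAs, high-fat over control (y axis), at day 1, week 1 and week 3, as edgeR estimates ± SE from 4 against 4 libraries each. The week 1 values of miR-7a-5p (−1.26), miR-488-3p (−1.69) and miR-598-3p (−0.68) and the week 3 value of miR-129-2-3p (−1.38) stand below the others. miR-9-5p is not plotted because of its low counts.

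Whether the diet effect differed between the times was tested jointly over the 3 times. edgeR called 0 of the 7 members after adjustment, against a background of 0%. At an unadjusted p under 0.05, 4 members passed (miR-7a-5p, miR-9-5p, miR-598-3p and miR-488-3p), against a background of 7.35%, and their adjusted p was 0.567. DESeq2 and limma-voom also called 0 members after adjustment, and 0% of all tested miRNAs. In the mean over the times, the log2 fold changes between the diets ran from −0.55 ± 0.31 for miR-488-3p to 0.20 ± 0.33 for miR-129-5p.

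Within the high-fat diet, miR-7a-5p and miR-488-3p were lower at week 1 than at day 1. These comparisons share the high-fat week 1 libraries with the diet comparison above. miR-488-3p had a log2 fold change of −1.98 ± 0.57 and miR-7a-5p of −1.34 ± 0.42, and for both, every week 1 library was below every day 1 library (2 of 7 members, against 5.73% of all tested miRNAs). No member was higher in every week 1 library, against 3.41% of all tested miRNAs. edgeR called 0 of the 7 members here, against a background of 0%, with 2 members at an unadjusted p under 0.05 against a background of 20.6%. DESeq2 called both, miR-488-3p at −2.05 ± 0.59 (adjusted p = 0.0464) and miR-7a-5p at −1.36 ± 0.42 (adjusted p = 0.0474), among 4.12% of all tested miRNAs that it called, and limma-voom called 0 members and 0% of all tested miRNAs. miR-7a-1-3p had a log2 fold change of −0.65 ± 0.28.

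Of the leukocyte, muscle and epithelial marker sums, only the leukocyte sum separated high-fat week 1 from day 1 without overlap. The summed leukocyte miRNAs were 3353 to 17111 CPM at week 1 and 18801 to 43684 CPM at day 1 of the high-fat diet, without overlap, and 7 of the 8 had a fold change below 0 with a median of −1.47 on the log2 scale, against 0.08 over all tested miRNAs. The summed muscle miRNAs were 130.1 to 80427 CPM at week 1 and 24.04 to 3022 CPM at day 1, and all 5 tested of 6 had a fold change above 0 with a median of 3.09. The summed epithelial miRNAs were 8761 to 39056 CPM at week 1 and 10310 to 17178 CPM at day 1, and all 7 had a fold change above 0 with a median of 0.67. The muscle difference was shared by the control diet, where all 5 were higher at week 1 than at day 1, with a median of 2.94. There the medians were 0.44 for leukocyte markers (6 higher, 2 lower) and −0.10 for epithelial markers (2 higher, 5 lower), against 0.10 over all tested miRNAs. Between high-fat week 1 and day 1, edgeR called 0 markers of these lists after adjustment. In edgeR, 6 leukocyte, 2 muscle and 4 epithelial markers had an unadjusted p under 0.05. DESeq2 called 1 leukocyte, 1 muscle and 0 epithelial markers after adjustment, against 4.12% of all tested miRNAs, and limma-voom called 0. The part of these marker lists in the high-fat time differences of miR-7a-5p and miR-488-3p was not tested.

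At week 3 of the high-fat diet the members lay on both sides of their day 1 levels. Against day 1, miR-488-3p had a log2 fold change of −1.40 ± 0.54, miR-7a-5p of −0.74 ± 0.42 and miR-129-2-3p of −0.84 ± 0.49. miR-598-3p, which at week 1 had −0.33 ± 0.24 against day 1 (−0.68 without high-fat week 1 replicate 4), had 0.39 ± 0.23 at week 3, with 35.3, 29.2, 28.4 and 28.5 CPM at week 3 against 20.3, 19.3, 25.1 and 28.1 CPM at day 1. Every week 3 library of miR-598-3p was above every day 1 library (1 of 7 members, against 7.35% of all tested miRNAs), by a small margin, and no member was lower in every week 3 library, against 4.3% of all tested miRNAs. edgeR called 0 of the 7 members after adjustment, against a background of 0%, and 2 passed unadjusted against a background of 15.8%. These 2 were miR-488-3p and miR-9-5p, and a single library held most week 3 counts of miR-9-5p. DESeq2 called 0 members and 1.97% of all tested miRNAs, and limma-voom 0 members and 0%.

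The control diet shows how the members differed with time without the high-fat diet. There the estimate for miR-598-3p was above its day 1 level at both later times, whereas on the high-fat diet it was below that level at week 1. On the control diet its log2 fold change was 0.49 ± 0.23 for week 1 against day 1. Every week 1 library was above every day 1 library (1 of 7 members, against 4.84% of all tested miRNAs). For week 3 against day 1 it was 0.43 ± 0.23, and the groups overlapped. Without control day 1 replicate 4, at 13.3 CPM, these values were 0.28 and 0.21. miR-7a-5p and miR-488-3p had 0.43 ± 0.41 and −0.03 ± 0.47 for week 1 against day 1, and −0.36 ± 0.41 and −0.92 ± 0.50 for week 3 against day 1. miR-9-5p was lower in every control week 1 library than in any control day 1 library, at 0 to 2 counts against 2 to 25, all week 1 values and 1 day 1 value being under the floor of 3 counts (1 of 7 members, against 2.33% of all tested miRNAs).

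miR-129-5p was higher in every control week 3 library than in any control day 1 library, with 1.98, 1.77, 1.75 and 1.64 CPM at week 3 against 1.41, 0.718, 1.52 and 0 CPM at day 1 (1 of 7 members, against 3.76% of all tested miRNAs). Its log2 fold change was 0.88 ± 0.55. On the control diet edgeR called 0 of the 7 members in either comparison, against a background of 0.179% for week 1 and 0.358% for week 3 against day 1. Unadjusted, 2 and 0 members passed, against 13.6% and 14.9% of all tested miRNAs. The 2 were miR-598-3p and miR-9-5p, the latter with its week 1 counts under the floor. DESeq2 called 0 members in either comparison, against 1.61% and 1.08% of all tested miRNAs, and limma-voom 0 members, against 0.179% in each.

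Levels of miR-7a-5p and miR-488-3p were higher in libraries richer in leukocyte miRNAs. All 8 markers of the leukocyte list passed the filter and none was at 0. At week 1 their summed level was 3353 to 17111 CPM (median 8607) in high-fat libraries and 8689 to 42140 CPM (median 29929) in control libraries. Of the 8, 7 were lower in high-fat tissue, and the median log2 fold change was −1.52 against −0.02 over all tested miRNAs. These 7 are not separate miRNAs: they are both arms of miR-142a, miR-150 and miR-342, and miR-155-5p. The other marker, the myeloid miR-223-3p, had 0.14 ± 0.21. The sum is mostly miR-142a-5p, miR-142a-3p and miR-150-5p (means 8325, 7676 and 4325 CPM). edgeR, DESeq2 and limma-voom each called 0 of the 8 after adjustment, and 7 of the 8 had an unadjusted p under 0.05 in edgeR, against 14.2% of all tested miRNAs. Control week 1 replicate 4, without which miR-7a-5p and miR-488-3p were called, had the lowest leukocyte sum of its group, 8689 CPM.

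The leukocyte sum stood otherwise at the other times. It was 18801 to 43684 CPM in high-fat and 12235 to 33269 CPM in control libraries at day 1, and 12249 to 23523 CPM in high-fat and 3670 to 30263 CPM in control libraries at week 3, with median log2 fold changes of 0.38 and −0.01. Control week 3 replicate 1, the library lowest in miR-7a-5p, had 3670 CPM of leukocyte miRNAs.

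Across the 24 libraries, the log2 level of miR-7a-5p and the log2 leukocyte sum had a Pearson r of 0.87 and a Spearman rho of 0.87, and r was 0.82 after the group means were removed. Without the 2 libraries farthest from the median leukocyte sum, r was 0.85. For miR-488-3p, r was 0.74, rho 0.81 and r within groups 0.63. For miR-598-3p, r was 0.40, and 0.18 without the 2 farthest libraries. The values of miR-7b-5p (0.03), miR-9-5p (−0.02), miR-129-5p (−0.08) and miR-129-2-3p (−0.15) were near 0. With the log2 sum of the other neural miRNAs listed below, miR-7a-5p had an r of −0.74 (within groups −0.67). For miR-488-3p that r was −0.60 (within groups −0.44), and for the other members it was −0.27 to 0.48. The neural sum is mostly miR-218-5p (mean 1952 CPM), followed by miR-128-3p (484 CPM), so these r say little of the rest of that list. With the muscle and epithelial sums, miR-7a-5p and miR-488-3p had r from −0.36 to −0.28. These r describe points that share a library, its depth and its scaling. The part of the leukocyte content in the week 1 differences of miR-7a-5p, miR-488-3p and miR-598-3p was not tested.

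**Figure D4:**
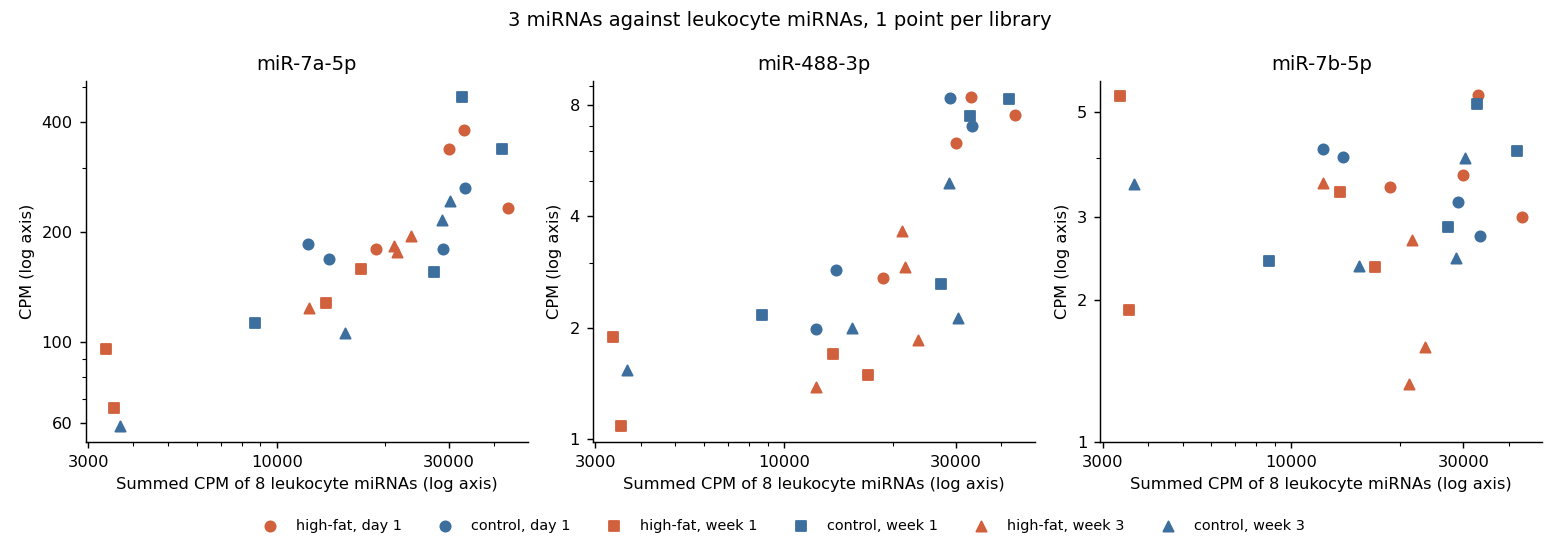
CPM of miR-7a-5p, miR-488-3p and miR-7b-5p (y axes, log scale) against the summed CPM of 8 leukocyte miRNAs (x axes, log scale), 1 point per library, with colour for diet and shape for time. miR-7a-5p (r = 0.87) and miR-488-3p (r = 0.74) lie along a rising band, with 2 of the 4 high-fat week 1 libraries and control week 3 replicate 1 at its lower left end, and miR-7b-5p (r = 0.03) shows no such band.

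All 7 epithelial miRNAs passed the filter, and their sum was 8761 to 39056 CPM (median 22491) in high-fat week 1 libraries and 12759 to 16416 CPM (median 14636) in control week 1 libraries. Over the 24 libraries miR-7b-5p had an r of 0.47 with the log2 epithelial sum, 0.54 within groups and 0.35 without the 2 farthest libraries. High-fat week 1 replicate 1 had both the highest epithelial sum and the highest miR-7b-5p level of its group (5.42 CPM).

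The miRNAs whose levels were most like those of each member over the 24 libraries were then named, without p. For miR-7a-5p they were miR-342-3p (r = 0.91, within groups 0.89), miR-423-5p (0.90, within groups 0.86) and miR-155-5p (0.88, within groups 0.85), and miR-342-3p and miR-155-5p belong to the leukocyte list. For miR-488-3p they were miR-16-2-3p (r = 0.86, within groups 0.78), miR-130b-3p (0.82) and miR-146a-5p (0.82). For miR-598-3p they were miR-1843b-5p (r = 0.85, within groups 0.76), let-7g-5p (0.81) and miR-744-3p (0.79).

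Among the 4 sparsest members, miR-7b-5p was most like miR-29c-3p (r = 0.71), miR-200c-3p (0.65) and miR-29b-3p (0.65), and miR-129-5p most like miR-674-3p (0.77), let-7b-3p (0.72) and miR-30c-5p (0.69). The highest values for miR-129-2-3p, with miR-376a-3p (0.55), let-7a-2-3p (0.52) and miR-196b-5p (0.48), were 0.16, 0.21 and 0.06 without the 2 farthest libraries. miR-9-5p was most like miR-24-3p (r = 0.82, within groups 0.84), then miR-136-5p (0.60) and miR-451a (0.57).

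Among themselves, members of the same hairpin or seed were not the most alike. miR-7a-5p and miR-488-3p, which share neither seed nor locus, had r = 0.79 (rho 0.74, within groups 0.67). miR-7a-5p had r = 0.62 with its own opposite arm miR-7a-1-3p and 0.32 with miR-7b-5p. miR-9-5p and miR-9-3p had r = −0.16, and miR-129-5p and miR-129-2-3p had r = 0.28, which was −0.03 without the 2 farthest libraries. Counting alone would give a coefficient of variation of 22.6% to 45.7% for miR-7b-5p and the miR-9 and miR-129 arms named here, and 20.8% for miR-488-3p. Counting error can lower r, and its part in these values was not tested.

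Other miRNAs of neural and endocrine tissue were read beside the members. Of 13 other neural miRNAs 6 passed the filter, and edgeR called 0 of them between the diets at any time, with 3 higher and 3 lower in high-fat tissue at day 1, week 1 and week 3 and medians of −0.09, 0.04 and −0.02 on the log2 scale, against −0.01, −0.02 and −0.05 over all tested miRNAs. The 3 with the highest levels were miR-218-5p (1952 CPM), miR-128-3p (484 CPM) and miR-326-3p (154 CPM). Their log2 fold changes at week 1, where miR-7a-5p and miR-488-3p were low, were 0.39 ± 0.27, 0.13 ± 0.47 and −0.11 ± 0.19. The largest of the list at week 1 was that of miR-383-5p, at −0.98 ± 0.52 and a mean level of 3.46 CPM, close to that of miR-488-3p. DESeq2 and limma-voom also called 0 of the 6, and 0 had an unadjusted p under 0.05 in edgeR. The split at week 1 was 2 higher and 4 lower by limma-voom. miR-124-3p, a neuron-specific miRNA, had 30 counts in all and 0 in 9 libraries.

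Of 5 other endocrine miRNAs 3 passed the filter, and edgeR, DESeq2 and limma-voom each called 0 between the diets at any time, with 1 at an unadjusted p under 0.05, at week 3 (miR-217-5p in edgeR). The islet miRNA miR-375-3p averaged 21.8 CPM and miR-217-5p 1.54 CPM, and all 3, with miR-184-3p, had a fold change above 0 at week 1 with a median of 0.02 on the log2 scale (2 of 3 by limma-voom). At week 3, 2 were higher and 1 lower, with a median of 0.71, where miR-217-5p had 0.93 ± 0.44.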

How the data were processed

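The deposited values were raw counts of reads per mature miRNA name, 1 column per library, made from TRIzol-purified total RNA with a NEBNext small RNA kit, as the labels' protocols state. The submitters' processing notes name FastQC, Trim Galore, Bowtie2, featureCounts and build mm10. Not given in the sources used here are tool versions, settings, annotation, strand and how reads with several matches were treated, so counts of arms with several loci are uncertain. No library pair of a group matched within sampling noise (lowest chi-square per degree of freedom 172). Reads carry no molecular identifiers that the sources mention.

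Counts of all 24 libraries were fitted in 1 model of the 6 groups with edgeR 4.0.16 in R 4.3.3 (TMM, filterByExpr at a count minimum of 10 and a total minimum of 15, robust quasi-likelihood test, Benjamini-Hochberg threshold 0.05 over 558 miRNAs). The 9 comparisons were the diets at each time, their mean, a joint test of diet by time, and week 1 and week 3 against day 1 in each diet. The biological coefficient of variation was 0.359. Each edgeR SE was the absolute log2 fold change divided by the square root of the F statistic of its test. Alternatives were DESeq2 1.42.0, limma-voom (limma 3.58.1), other scalings, no filter, a replicate block and libraries left out, and the model was tested on simulated data. Correlations used log2 CPM with a prior count of 2. Named besides the 7 members were their opposite arms, the 3 miRNAs most correlated with each, marker list members and the 3 other neural miRNAs of highest level. miR-129b arms and miR-24 arms were named after their values were seen. Sequences are from RefSeq, and precursor positions are from GENCODE M21. The members and lists were chosen with earlier results of these data known.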

Additional observations from a re-analysis of the deposited data

Results flagged for a closer look

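In 6 of 42 groups of 4 libraries (7 miRNAs in 6 groups) the highest library stood apart from the other 3 by more than Dixon's 95% critical value. Chance flags about 1 in 20 groups for continuous values, which does not hold for the 4 groups of miR-9-5p, where most libraries had 0 to 2 counts. With 3 libraries at 0 the ratio is at its maximum by construction, as in high-fat day 1 replicate 1 (0.175 CPM, a single count) and high-fat week 1 replicate 2 (2.13 CPM). The other groups of miR-9-5p were those of high-fat week 3 replicate 3 (3.37 CPM) and control week 3 replicate 4 (2.73 CPM). miR-129-2-3p stood apart in control day 1 replicate 3 at 6.47 CPM, and miR-598-3p in high-fat week 3 replicate 1 at 35.3 CPM.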

How the results depend on the processing

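The number of members past the threshold was 0 in all 9 comparisons, and also 0 in 276 of 279 alternatives. The exceptions were high-fat against control at week 1, with 1 member without the 3 libraries highest in muscle miRNAs and 0 to 2 with 1 library left out (2 without control week 1 replicate 4), and high-fat week 1 against day 1, with 2 members by DESeq2. Of the member fold changes, 1484 of 1488 alternatives moved by less than the spread between libraries. The 4 others were miR-129-2-3p without control day 1 replicate 3 (log2 0.74 between diets at day 1, and 0.90 and 1.27 for control week 1 and week 3 against day 1) and miR-598-3p without high-fat week 1 replicate 4 (−0.68 for week 1 against day 1). Fold changes of at least 1 on the log2 scale kept their sign in 186 of 186 alternatives. Most alternatives leave out a single library, often one outside the groups compared, which can hardly move the result. The fold changes in the last tally were also picked for being large. These tallies are therefore high by construction and are weak evidence of stability. Scaling by library totals moved the median of all miRNAs in the week 3 diet comparison to −0.13, against −0.05 with TMM. Deviations from the group means of libraries with the same replicate number had a median r of −0.03 over 60 pairs, against 0.05 for different numbers. Between the diets at the same time, r was 0.07, 0.45, 0.32 and 0.30 at day 1, and 0.43, 0.28, 0.27 and −0.51 at week 1. At week 3 it was −0.18, 0.37, −0.11 and −0.30. Pairing within a time is not stated in the labels and was not tested. A replicate block shared by all 6 groups called 0 members in all 9 comparisons. It gave −1.22 for miR-7a-5p and −1.66 for miR-488-3p at week 1 and −1.52 for miR-129-2-3p at week 3. Counts over all tested miRNAs were less stable: 242 of 279 alternatives were within 1.5 times. DESeq2 called 23 in high-fat week 1 and 11 in high-fat week 3 against day 1, and 9 and 6 in the control comparisons, where edgeR called 0, 0, 1 and 2. Depth limits miR-9-5p and both miR-129 arms, which had 39 counts or fewer in every library. It also limits miR-7b-5p and miR-488-3p, with medians of 17.5 and 16.5 counts per library and a lowest count of 4 for each.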

Other observations

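miR-24-3p, the miRNA most like miR-9-5p, is also encoded at several loci (2) and was low, with 0 to 37 counts per library and a mean of 1.27 CPM (rank 545). The single-locus arms of the same hairpins were far higher, miR-24-2-5p at 2250 CPM (rank 48) and miR-24-1-5p at 72.4 CPM (rank 203). How reads with several genomic matches were counted is not given, and its part in the level of miR-9-5p was not tested. miR-9-3p, which is also encoded at 3 loci, had 2 to 55 counts in all 24 libraries. miR-7a-5p, with 2 loci, and miR-129-5p, with 2 loci, had 242 to 3195 and 0 to 21 counts per library.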
